A study of Homo sapiens with 8 samples.

Results

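DU145, a human prostate cancer cell line grown from a brain metastasis, was transfected with an expression plasmid for a circular RNA or with a negative control plasmid, and the RNA was sequenced. The comparison described here takes the 4 DU145 libraries out of 8 in the series, the other 4 being of the line PC3. It holds 1 library with circ0003553, 1 with circ0004592 and 1 control plasmid library for each of them. In the titles the libraries of circ0003553 and its control bear the gene name RCAN3, and those of circ0004592 bear STK3; each such pair is called an arm. All 4 libraries share the line and the act of transfection, and no untransfected cells, dose or time after transfection enters the comparison. The 2 circRNA libraries were set against the 2 controls across 16364 genes that reached 1 CPM (counts scaled to library size, in the usual CPM unit) in at least 2 of them. Since the circRNA libraries carry different inserts, a call means a change common to both. It must exceed the spread between the 2 controls and between the 2 circRNA libraries. The labels give no replicate numbers and do not say that the libraries came from separate cultures, so the p-values measure the spread between these libraries only, which may be technical. An exact permutation test of 2 libraries against 2 cannot go below p = 0.333, and every test below therefore borrows its spread across genes.

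Circular RNAs are closed loops made when a downstream splice donor joins an upstream acceptor, mostly from exons of protein-coding genes, and they lack the ends at which most messages are degraded. They have been studied as sponges of microRNAs and proteins and as ligands of double-stranded RNA sensors, whose signalling switches on interferon and the antiviral genes below it. RCAN3 belongs to the family of calcineurin regulators, and calcineurin is the phosphatase that sends NFAT factors to the nucleus. STK3 encodes MST2, a kinase of the Hippo pathway, which restrains the YAP coactivator. DU145 is a common model of advanced prostate cancer.

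The libraries held 45210390 counts in the control of circ0003553, 49926342 with circ0003553, 38134966 in the control of circ0004592 and 33739149 with circ0004592. The 2 controls were closer to each other than the 2 circRNA libraries were: a chi-square of the counts averaged 4.41 per gene for the controls and 25.6 for the circRNA libraries. Low counts were even numbers in 64.9% to 65.4% of cases. Where the 2 mates of a fragment are counted apart, sampling alone gives a value above 1. Markers were checked against the label of the line. All 5 epithelial markers reached 1 CPM in every library, with KRT8 between 1899 and 2521 CPM. CTNNA1 and STAT3, which PC3 is known to have lost, were both present, with CTNNA1 between 393 and 428 CPM. KLK3 and TMPRSS2, markers of luminal prostate cells, were at or near 0. None of 8 leukocyte markers and none of 5 erythroid markers reached 1 CPM.

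The genes named in the titles were looked at first. In all sentences that follow, the 2 control values are given with the control of circ0003553 first, and the 2 circRNA values with circ0003553 first. RCAN3 stood at 20.9 and 18.2 CPM in the controls and at 37.1 and 20.1 CPM in the circRNA libraries. The library made with circ0003553, the insert of the RCAN3 arm, was the high one. STK3 stood at 28.8 and 26.1 CPM in the controls and at 24.9 and 33.9 CPM in the circRNA libraries, and the highest of the 4 was the library with circ0004592. Neither gene was called for both circRNAs together (edgeR quasi-likelihood test, adjusted p = 0.50 for RCAN3 and 0.90 for STK3). The counts are per gene, so circular and linear transcripts of these genes cannot be told apart, and the circRNAs themselves were not measured separately here.

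Few genes moved with both circRNAs. At an adjusted p under 0.05 (Benjamini-Hochberg over all 16364 genes), 10 genes rose, which is 0.0611% of those tested, and 7 fell, which is 0.0428%. Of these, 6 rose and 1 fell at least 2-fold. All 17 lay outside the range of the controls in both circRNA libraries. They were called from these same 4 libraries, which favours such a separation. Over all tested genes, 19.5% lay above both controls with both circRNAs and 20.2% lay below. The largest changes at 5 CPM or more were rises of TXNIP, CD22, the collagenase gene MMP1 and its neighbour WTAPP1, and a fall of PLEKHA4. A fit of all 8 libraries, with 17869 genes tested, called 187 (1.05%) in DU145, the 17 among them. That fit draws its spread from the PC3 libraries as well. The chi-square between the 2 circRNA libraries averaged 7.82 per gene in PC3, against 25.6 in DU145. Its calls therefore rest on a spread not taken from DU145 alone. With 1 control left out, whichever it was, 9 of the 17 missed the threshold: AC002480.3, AC002480.5, CADM1, HMGA2, MT-TG, MT-TT, NFATC2, NNMT and PCED1B. All of these but MT-TG also missed it when only genes at 5 CPM or more were tested.

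**Figure D1:**
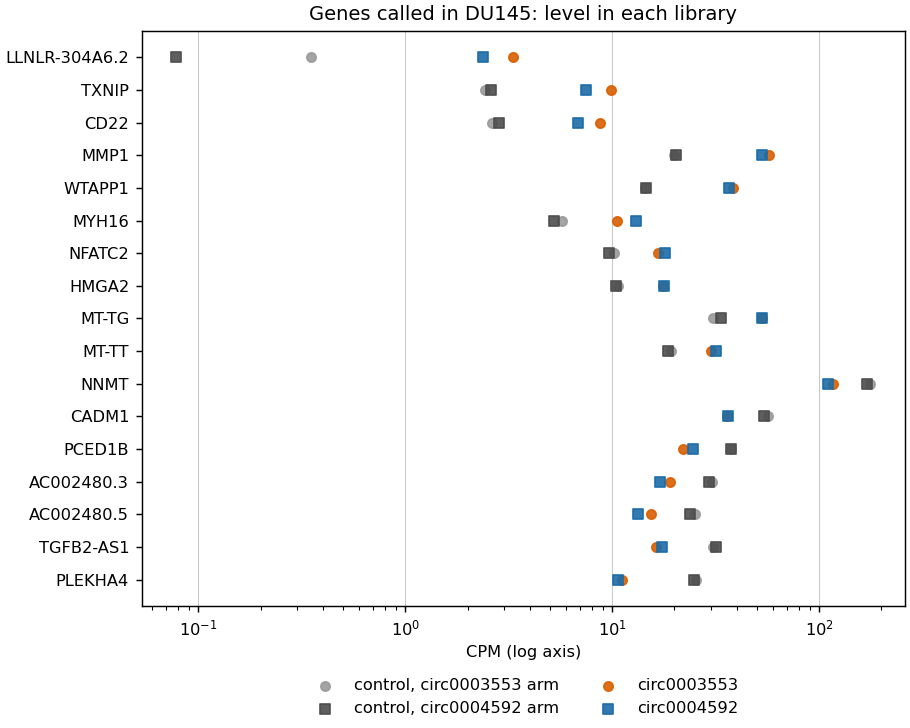
Level of the 17 called genes in each of the 4 DU145 libraries, in CPM on a log axis, 1 symbol per library. The calls come from these same libraries, which favours tight controls and a separation of the groups. The 2 controls of a gene nearly coincide for all but LLNLR-304A6.2, and both circRNA libraries lie on the same side of them, as for MMP1 with 19.9 and 20.3 CPM in the controls and 57.1 and 52.9 CPM in the circRNA libraries.

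MMP1, interstitial collagenase, cleaves fibrillar collagens. It stood at 19.9 and 20.3 CPM in the controls and at 57.1 and 52.9 CPM with the circRNAs. Both circRNA libraries were far above both controls, and the fitted log2 change was 1.46 ± 0.10 (SE, n = 2 libraries per group, edgeR quasi-likelihood, adjusted p = 0.000244). WTAPP1, a transcribed pseudogene, stood at 14.4 and 14.6 CPM in the controls and at 38.2 and 36.5 CPM with the circRNAs, a log2 change of 1.37 ± 0.11. The 2 genes lie on chromosome 11 (hg38), MMP1 at 102789920 to 102798160 on the minus strand and WTAPP1 at 102746968 to 102836766 on the plus strand, so that WTAPP1 spans all 8241 bases of MMP1. The strand setting of the counting is not given in the sources used here, and the counts of the pair may be shared. WTAPP1 also overlaps MMP10 and MMP3, which were at 0 or at most 0.105 CPM in every library. Among the 15 tested matrix metalloproteinases, plasminogen activators and their inhibitors, MMP1 was the only one called. MMP14, a membrane-bound collagenase, stood at 442 and 414 CPM in the controls and at 449 and 545 CPM with the circRNAs.

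TXNIP encodes an alpha-arrestin that binds thioredoxin and lowers glucose uptake. It stood at 2.42 and 2.59 CPM in the controls and at 9.92 and 7.51 CPM with the circRNAs. No overlap was seen between the groups, and the log2 change was 1.81 ± 0.19 (SE, edgeR, adjusted p = 0.00328). The other 9 tested genes of the list of alpha-arrestins and targets of the MLX family of glucose-sensing factors were not called. ARRDC4, a related arrestin that the same factors are known to induce, stood at 3.52 and 4.37 CPM in the controls and at 5.70 and 5.62 CPM with the circRNAs (adjusted p = 0.39). Its values thus lay above both controls without passing the test.

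CD22, a sialic-acid-binding lectin known from B cells, stood at 2.64 and 2.82 CPM in the controls and at 8.76 and 6.84 CPM with the circRNAs, a log2 change of 1.52 ± 0.18 (edgeR, adjusted p = 0.00851). The B-cell markers did not move with it. MS4A1 had no count in any library, and CD79A lay between 0.0784 and 0.244 CPM. The summed level of the 8 leukocyte markers was 0.235 to 0.264 CPM in the controls and 0.274 to 0.549 CPM with the circRNAs.

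NFATC2, a calcineurin-dependent transcription factor, stood at 10.3 and 9.70 CPM in the controls and at 16.7 and 18.01 CPM with the circRNAs. Its log2 change of 0.79 ± 0.12 passed the test (edgeR, adjusted p = 0.0445), but not with 1 or the other control left out (adjusted p = 0.166 and 0.241). It was the only called gene among 11 tested members of the calcineurin, RCAN and NFAT list. RCAN1, a feedback inhibitor that calcineurin signalling induces, lay at 43.8 and 46.0 CPM in the controls and at 43.1 and 40.4 CPM with the circRNAs. The calcineurin subunits PPP3CA, PPP3CB, PPP3CC and PPP3R1 had fitted log2 changes between -0.09 and 0.16, and none was called.

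HMGA2, an architectural chromatin protein of embryonic and tumour cells, stood at 10.7 and 10.5 CPM in the controls and at 17.6 and 17.8 CPM with the circRNAs (log2 change 0.75, edgeR adjusted p = 0.0445). MYH16, a sarcomeric myosin gene that is inactive in humans, stood at 5.72 and 5.23 CPM in the controls and at 10.5 and 13.1 CPM with the circRNAs. Its log2 change was 1.10 ± 0.15. LLNLR-304A6.2, an unnamed transcript within BTBD2 on chromosome 19, was the least abundant call, with 16 and 3 counts in the controls and 169 and 78 counts with the circRNAs. Its fitted change rests on those few control counts. BTBD2 itself was not higher with the circRNAs, at 16.9 and 17.4 CPM in the controls and 12.5 and 15.1 CPM with them.

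PLEKHA4, a phosphoinositide-binding adaptor, had the largest fall. It stood at 25.5 and 25.0 CPM in the controls and at 11.2 and 10.7 CPM with the circRNAs, a log2 change of -1.20 ± 0.11 (SE, edgeR, adjusted p = 0.00144). The 4 libraries thus formed 2 tight pairs. Its neighbours on chromosome 19 were not called: HSD17B14 had a log2 change of -0.35 and PPP1R15A one of 0.15.

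TGFB2-AS1, an antisense transcript that starts beside TGFB2 on chromosome 1, fell from 30.9 and 31.8 CPM in the controls to 16.4 and 17.5 CPM, a log2 change of -0.89 ± 0.11 (edgeR, adjusted p = 0.00851). TGFB2, which encodes a transforming growth factor, stood at 33.2 and 39.0 CPM in the controls and at 23.8 and 23.5 CPM with the circRNAs. Both of its circRNA values were below both controls, but the test was missed (adjusted p = 0.0735). The 2 annotated genes do not overlap. Of the 20 tested ligands, receptors and targets of TGF-beta, 5 (25%) had both circRNA libraries above both controls and 6 (30%) had both below. Over all tested genes these shares were 19.5% and 20.2%. None of the 20 was called.

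NNMT, a methyltransferase that consumes nicotinamide and S-adenosylmethionine, was the most abundant called gene. It fell from 176 and 171 CPM in the controls to 117 and 110 CPM with the circRNAs (log2 change -0.61). CADM1, an immunoglobulin-type adhesion molecule, fell from 56.5 and 54.3 CPM to 35.8 and 36.3 CPM (log2 change -0.62). PCED1B fell from 37.4 and 37.4 CPM to 22.0 and 24.7 CPM (log2 change -0.68). AMIGO2, a leucine-rich-repeat adhesion molecule that overlaps PCED1B by 349 bases on the other strand, narrowly missed the threshold (70.3 and 70.0 CPM in the controls, 48.7 and 47.2 CPM with the circRNAs, edgeR adjusted p = 0.053). A further pair of called falls, AC002480.5 and AC002480.3, are uncharacterised transcripts on chromosome 7 that overlap each other by 2390 bases on opposite strands. AC002480.5 went from 25.1 and 23.7 CPM to 15.4 and 13.4 CPM. STEAP1B, which spans all of AC002480.3 and part of AC002480.5, was not called (7.55 and 7.98 CPM in the controls, 7.45 and 7.36 CPM with the circRNAs).

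The threshold fell in a dense region of the ranking. Another 17 genes had adjusted p-values between 0.0509 and 0.0588. All 17 were called in the fit of 8 libraries (187 of 17869 genes called, 1.05%). They were also called in the fit with the arm as a block (124 of 16364 genes called). Both fits hold these same 4 libraries and call more genes, so these calls are not independent of the ranking. The 17 near the threshold included 2 adhesion genes. CDH1, which encodes E-cadherin, was at 62.5 and 64.6 CPM in the controls and 43.3 and 41.1 CPM with the circRNAs. ITGA2, the collagen-binding integrin subunit, was at 28.99 and 29.1 CPM against 47.9 and 41.6 CPM. Secreted factors were among them as well. BMP4, a bone morphogenetic protein, stood at 26.4 and 27.4 CPM in the controls and 17.7 and 16.1 CPM with the circRNAs, CXCL8, a neutrophil chemokine, at 7.57 and 7.43 CPM against 12.2 and 12.7 CPM, and LCN2, a siderophore-binding lipocalin, at 10.9 and 11.9 CPM against 18.4 and 18.5 CPM. HMGA1, the relative of HMGA2, stood at 738 and 721 CPM in the controls and at 1075 and 1085 CPM with the circRNAs. Of the 25 epithelial junction genes tested, 9 (36%) had both circRNA libraries above both controls and 8 (32%) had both below. Over all tested genes these shares were 19.5% and 20.2%. The tight-junction genes CLDN1 and CGN were among the 8 below, while the median log2 change of all 25 was -0.01. CLDN1 stood at 53.2 and 55.2 CPM in the controls and 39.3 and 37.0 CPM with the circRNAs.

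How alike the 2 circRNAs acted was described by setting each circRNA library against the control of its own arm, 2 folds that share no library. Across 11840 genes with a mean of at least 5 CPM, these folds correlated at r = 0.158 and rho = 0.0726 and had the same sign in 50.7% of genes. This is a description across genes, which are not replicates. The median absolute log2 fold was 0.134 with circ0003553 and 0.143 with circ0004592, against 0.0699 between the 2 controls. A fold past 0.5 log2 in either direction was seen for 300 genes with circ0003553 and for 355 with circ0004592. For 38 genes both folds were past 0.5 upward, for 26 both were downward and for 1 they were opposed. The ratio of the 2 circRNA libraries passed 0.5 log2 for 424 genes, and the ratio of the 2 controls for 30. Most of the differences from control were thus small, and the larger ones that both libraries showed had the same direction in 64 of 65 genes.

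**Figure D2:**
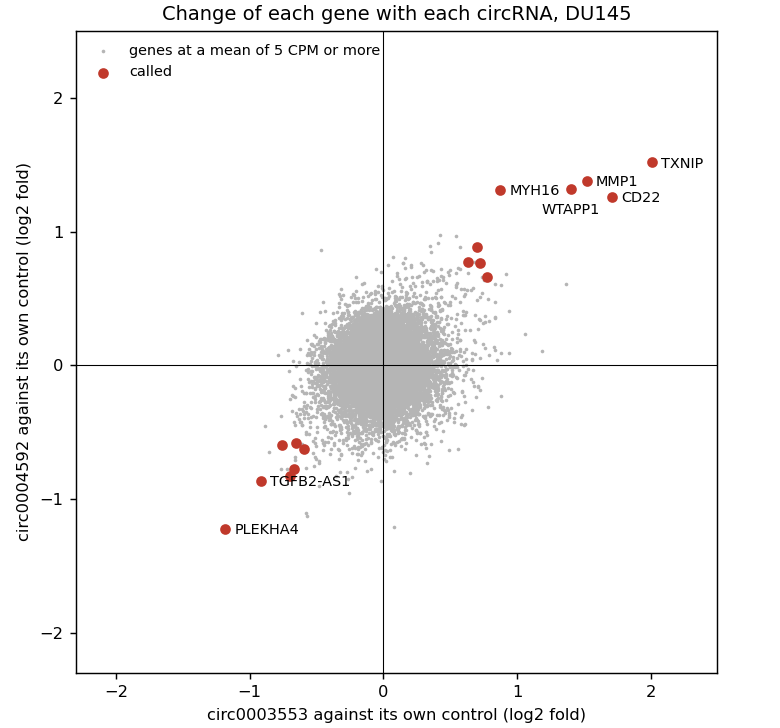
Log2 fold of each gene with circ0003553 (horizontal axis) and with circ0004592 (vertical axis), each against the control of its own arm, for 11840 genes at a mean of 5 CPM or more. Most genes form a round cloud (r = 0.158), and the called genes, in red, lie along the diagonal at its edges, TXNIP being the farthest at the upper right and PLEKHA4 at the lower left.

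Gene lists were read by counting members for which both circRNA libraries lay above both controls, or both below. Over all tested genes the groups separated upward in 19.5% and downward in 20.2%, and the median log2 change was 0.00. Lists far from these shares included the mitochondrial tRNAs, the mitochondrially encoded messages, lysosomal genes and interferon genes on the upper side. On the lower side they included cholesterol genes, targets of YAP and TEAD, fatty acid synthesis, host genes of small nucleolar RNAs and mitotic genes. No cutoff defined them, and some other lists lay about as far. Matrix metalloproteinases and inhibitors lay above in 46.7% and below in 20%, heat shock chaperones in 45.8% and 8.33%. Integrins lay above in 45.5% and below in 27.3%, MAPK genes in 43.5% and 13.0%, and splicing factors in 7.41% and 40.7%. Of all list members only MMP1, TXNIP, NFATC2 and the tRNA genes MT-TG and MT-TT were called, so these counts describe small shifts and not called genes.

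**Figure D3:**
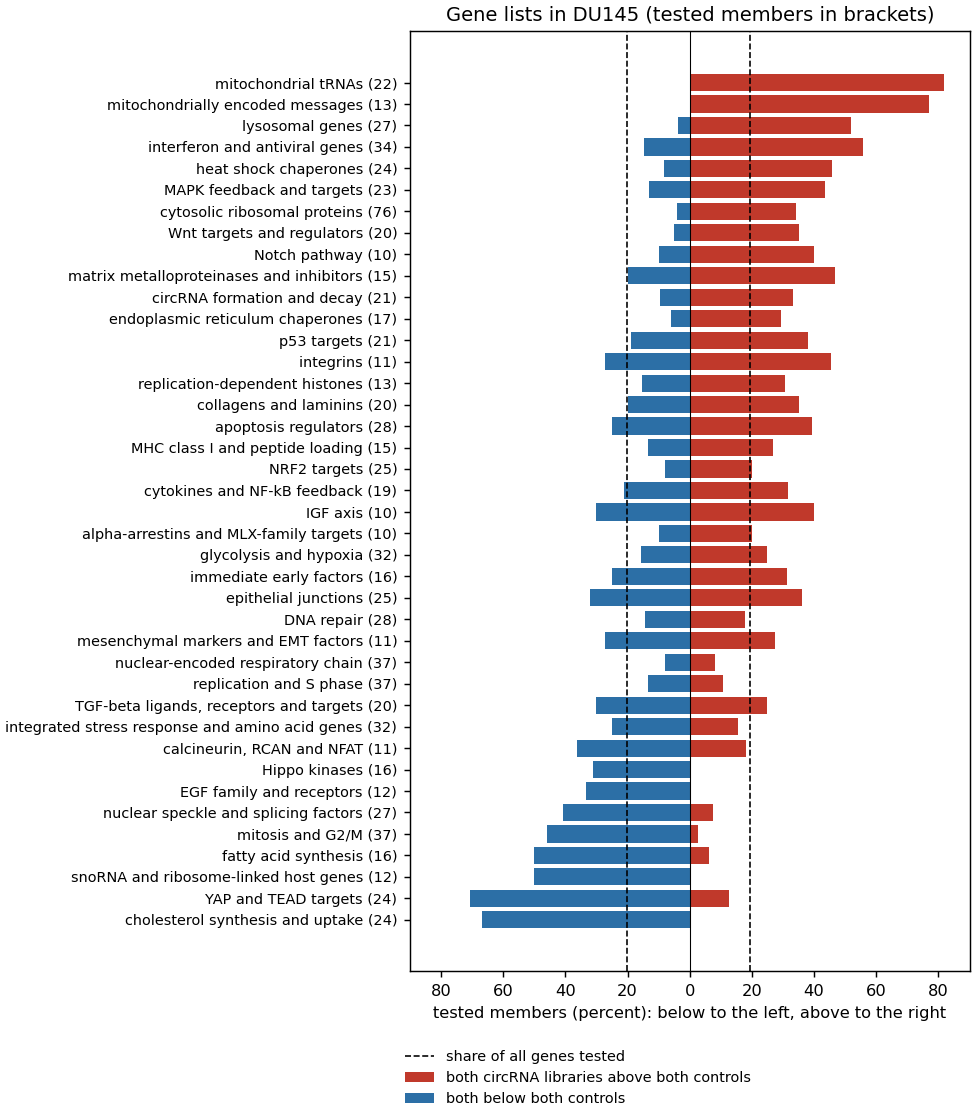
Share of tested members of each gene list with both circRNA libraries above both controls (red, to the right) or below both controls (blue, to the left), in percent, for lists with at least 10 tested members, whose number is in brackets. Dashed lines mark the shares over all tested genes, 19.5% above and 20.2% below. The mitochondrial tRNAs have 18 of 22 members above, and the cholesterol list has 16 of 24 below.

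Interferon and antiviral genes were mostly low in DU145. Of 46 genes, 12 did not reach the level for testing, among them RSAD2, IFI44L and OAS1 at under 0.5 CPM in every library and CXCL10 with no count at all. Of the 34 tested, 19 (55.9%) lay above both controls with both circRNAs and 5 (14.7%) below, and the median log2 change was 0.17, with none called. When library totals alone set the scale, 16 lay above (47.1%, against 17.8% of all tested genes on that scale). With the spread taken from all 8 libraries, in which 1.05% of 17869 genes passed for this DU145 contrast, 8 of the list were called higher and 1 lower.

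The largest values of the list belonged to IFI44, MX2 and DDX60, which are antiviral effectors. IFI44 stood at 3.76 and 4.79 CPM in the controls and at 9.80 and 7.33 CPM with the circRNAs (log2 change 1.02 ± 0.19, edgeR adjusted p = 0.0735). DDX60, a helicase that aids RNA sensing, stood at 5.37 and 4.81 CPM against 10.2 and 7.75 CPM. ISG15, a ubiquitin-like modifier, stood at 25.8 and 25.3 CPM in the controls and at 31.8 and 41.1 CPM with the circRNAs, and MX1, a dynamin-like GTPase that blocks viruses, at 34.8 and 33.4 CPM against 41.1 and 50.4 CPM. The groups were separate for all 4, without a call in DU145 alone. Some members lay on the other side. IRF1, a transcription factor of the pathway, was at 31.9 and 32.7 CPM in the controls and at 25.8 and 30.4 CPM with the circRNAs. IFI35, an interferon-induced leucine-zipper protein, did as well, at 10.3 and 10.01 CPM in the controls and 6.86 and 6.99 CPM with the circRNAs. In the separate list of guanylate-binding proteins, which interferon gamma induces, GBP3 was below both controls (9.29 and 10.2 CPM in the controls, 6.23 and 4.61 CPM with the circRNAs, adjusted p = 0.11).

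The stretches of IFI44 and MX1 that hold the interferon element are shown because the genes with separate groups include these direct interferon targets, and TXNIP is shown as the largest called rise at a mean of 5 CPM or more. The element was searched as GAAANNGAA on both strands in the RefSeq promoter table (GRCh38.p14), in windows of 250 bases before to 50 after each start. Of 35 list genes with a promoter there, 26 (74.3%) had the element in a window, against 8.84% of the 10234 tested genes in the table. The list was made of known interferon genes and here includes untested ones. Its excess was thus built in and is no result of these libraries. IFI44 is shown for the 250 bases before its start at chr1:78649539-78649788 on the plus strand, MX1 for 30 bases just after its first start at chr21:41420562-41420591 on the plus strand, and TXNIP for the 250 bases before its start at chr1:145996580-145996829 on the minus strand. Capitals mark the interferon element, which in IFI44 reads on the other strand and starts 17 bases before the start site. In MX1 they mark 2 overlapping copies that begin 12 and 18 bases after it. GBP3, which lay below both controls with both circRNAs, has the element as well, beginning 4 bases after its start. Of the 5 called genes in the promoter table, 0 had any of the motifs searched. TXNIP has none of the motifs searched (the interferon element, AP-1 as TGANTCA, the E-box CACGTG, the sterol element ATCACCCCA and the heat shock element GAANNTTC), which says only that these letters are not in the window. Over the tested promoters AP-1 was found in 5.30%, the E-box in 9.32%, the sterol element in 0.141% and the heat shock element in 4.91%.
IFI44: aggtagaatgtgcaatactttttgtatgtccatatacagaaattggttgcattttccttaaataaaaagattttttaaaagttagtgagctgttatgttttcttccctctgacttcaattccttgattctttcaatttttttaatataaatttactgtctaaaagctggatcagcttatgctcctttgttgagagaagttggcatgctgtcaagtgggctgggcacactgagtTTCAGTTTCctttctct
MX1: cagaaatGAAACCGAAACTGAAttgtccgg
TXNIP: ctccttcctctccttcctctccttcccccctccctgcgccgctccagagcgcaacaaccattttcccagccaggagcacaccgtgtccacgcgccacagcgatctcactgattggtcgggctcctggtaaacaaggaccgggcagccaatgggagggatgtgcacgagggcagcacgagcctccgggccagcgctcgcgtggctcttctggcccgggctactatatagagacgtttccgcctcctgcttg

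Genes of cholesterol synthesis and uptake lay lower with both circRNAs. The pathway makes cholesterol from acetyl-CoA and is switched on by the factor SREBP2 when membranes run short of sterol. Of 24 tested genes, 16 (66.7%) had both circRNA libraries below both controls and none had both above. The median log2 change was -0.22, and none was called in DU145 alone. With the spread of all 8 libraries, by which 1.05% of all genes were called, 4 were called lower. INSIG1, which retains SREBP in the endoplasmic reticulum and is itself an SREBP target, stood at 14.0 and 15.8 CPM in the controls and at 10.98 and 8.85 CPM with the circRNAs (log2 change -0.58 ± 0.14, edgeR adjusted p = 0.19). HMGCS1, the synthase at the head of the pathway, was at 198 and 208 CPM in the controls and 163 and 142 CPM with the circRNAs. Both of its circRNA values were below both controls. PMVK, a kinase of the mevalonate steps, and SREBF2, which encodes SREBP2, did not separate: SREBF2 lay at 56.1 and 53.3 CPM in the controls and at 48.6 and 56.6 CPM with the circRNAs. In the related list of fatty acid synthesis, 8 of 16 genes (50%) lay below and 1 (6.25%) above (median log2 change -0.09, none called). The shares over all tested genes were 20.2% below and 19.5% above.

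**Figure D4:**
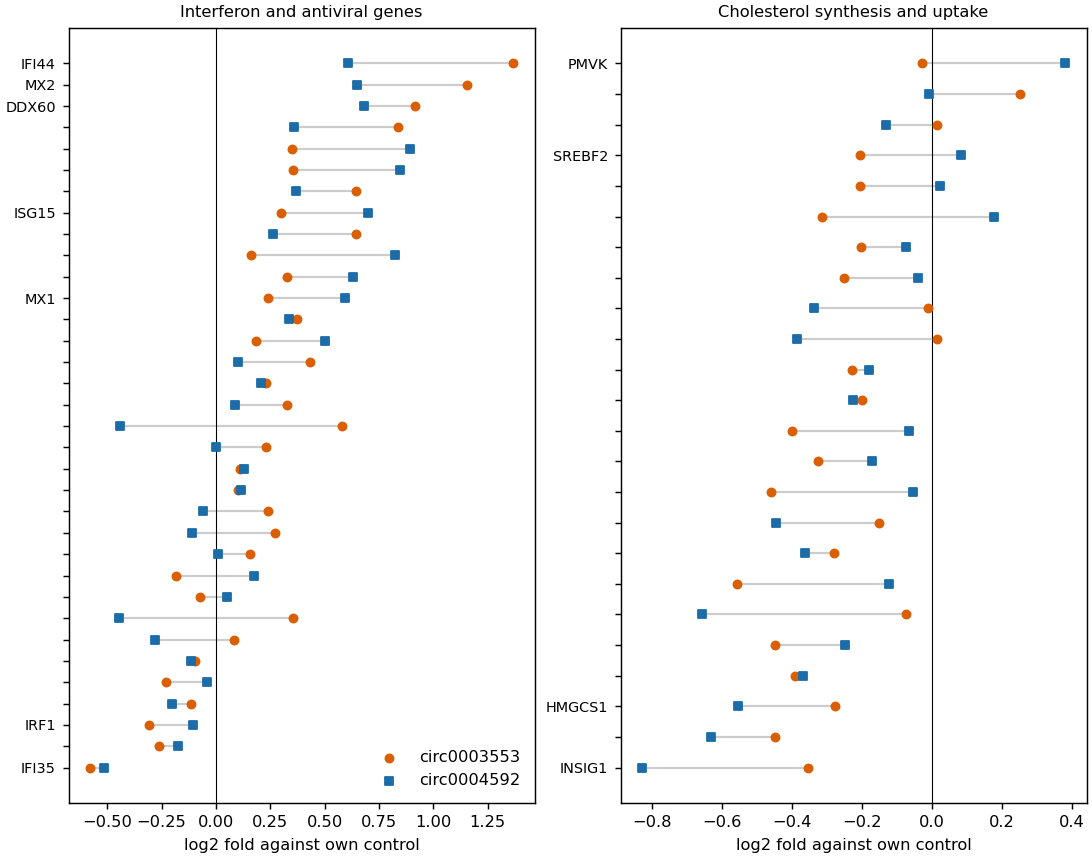
Log2 fold of each tested interferon gene (left) and cholesterol gene (right) with circ0003553 (circles) and circ0004592 (squares), each against its own control, ordered by the fitted change; only genes named in the text carry a label. IFI44, MX2 and DDX60 lead the interferon panel and IFI35 ends it, and INSIG1 ends the cholesterol panel, with a change of -0.58 over both circRNAs.

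Hippo kinases and their nuclear partners were described because STK3 is one of them. Of 16 tested kinases, adaptors, YAP, TAZ and TEAD factors, none lay above both controls with both circRNAs and 5 (31.25%) lay below. The shares over all tested genes were 19.5% above and 20.2% below, and the median log2 change of the list was -0.02. WWC1, an adaptor that activates the kinases and is also a YAP target, stood at 204 and 204 CPM in the controls and at 140 and 153 CPM with the circRNAs (log2 change -0.48 ± 0.10, edgeR adjusted p = 0.11). YAP1 was at 110 and 104 CPM against 107 and 94.1 CPM. Among 24 tested targets of YAP and TEAD, 17 (70.8%) lay below both controls and 3 (12.5%) above, against the same shares of all tested genes. Their median log2 change was -0.19. GADD45B, a stress-induced growth-arrest protein, was at 122 and 110 CPM in the controls and at 78.7 and 87.7 CPM with the circRNAs. ANKRD1, one of the most used YAP reporters, was at 79.0 and 78.3 CPM against 63.5 and 62.5 CPM. NT5E, the ecto-enzyme CD73, lay on the other side, at 112 and 120 CPM in the controls and 189 and 155 CPM with the circRNAs. No target was called in DU145 alone. With the spread of all 8 libraries, by which 1.05% of all genes were called, 3 were called lower and 1 higher.

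Mitochondrial DNA is transcribed as long polycistronic RNAs in which tRNAs lie between the messages and are cut out. Of the 22 mitochondrial tRNA genes, a list added after the data were seen, 18 (81.8%) lay above both controls with both circRNAs and none below. The median log2 change was 0.41, with 0.44 for circ0003553 and 0.38 for circ0004592 against their own controls. With library totals alone as the scale, 15 lay above (68.2%, against 17.8% of all tested genes on that scale). With the spread of all 8 libraries, by which 1.05% of all genes were called, 7 were called higher. MT-TG rose from 30.9 and 33.5 CPM in the controls to 52.8 and 52.9 CPM (log2 change 0.72 ± 0.10, edgeR adjusted p = 0.0268). MT-TT rose from 19.3 and 18.5 CPM to 30.1 and 31.8 CPM (log2 change 0.71 ± 0.11, adjusted p = 0.0445). MT-TH, MT-TS2 and MT-TL2, which lie side by side, missed the threshold narrowly, with MT-TH at 37.5 and 40.9 CPM in the controls and 57.9 and 60.5 CPM with the circRNAs.

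The 13 messages were read in the same way. For 10 of them (76.9%) both circRNA libraries lay above both controls, against 19.5% of all tested genes. On the scale of library totals alone this held for 7 (53.8%, against 17.8% of all tested genes). Their median log2 fold was 0.47 with circ0003553 and 0.06 with circ0004592. Several abundant tRNAs had values like these, such as MT-TC at 319 and 354 CPM in the controls and 398 and 347 CPM with the circRNAs, and the lists were not tested against each other. MT-ND1, a subunit of respiratory complex I, stood at 2946 and 3352 CPM in the controls and at 4344 and 3949 CPM with the circRNAs. MT-CO1, a subunit of complex IV, stood at 4254 and 4458 CPM against 5943 and 4501 CPM, so that the library with circ0003553 was high and the other close to the controls. All mitochondrial genes together took 4.96% and 5.27% of the counts in the controls, 6.55% with circ0003553 and 5.50% with circ0004592. The part of this total in the tRNA values was not tested. The tRNA genes are 59 to 75 bases long and the reads 150 bases, so counts of mature tRNAs and of longer precursors cannot be told apart. The 37 nuclear-encoded genes of the respiratory chain had 3 members above both controls and 3 below. This is 8.11% each, against 19.5% and 20.2% of all tested genes.

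**Figure D5:**
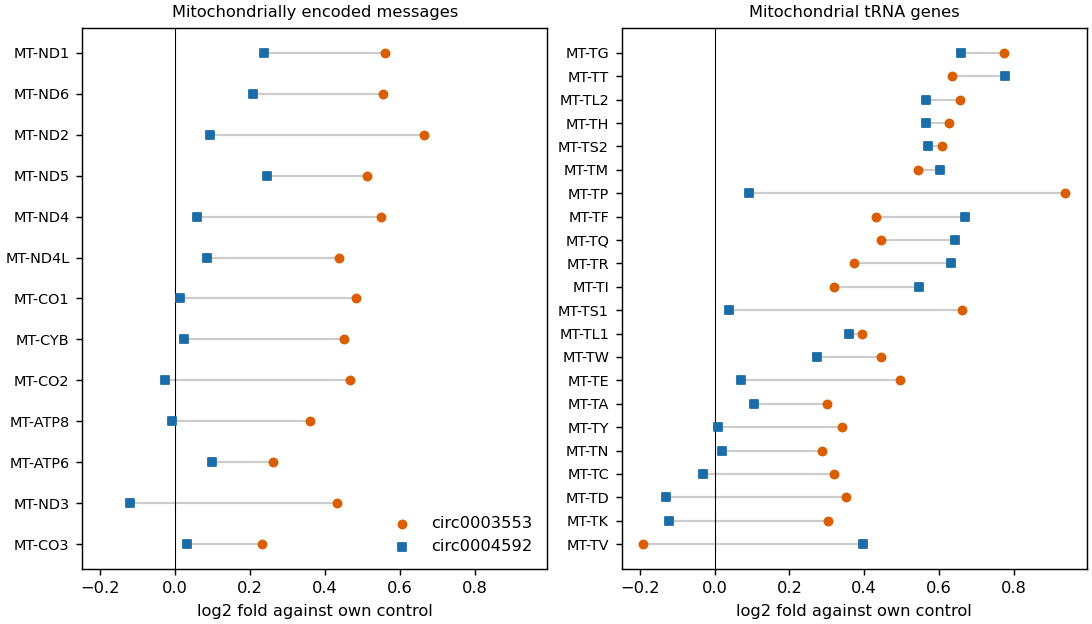
Log2 fold of the 13 mitochondrially encoded messages (left) and 22 mitochondrial tRNA genes (right) with circ0003553 (circles) and circ0004592 (squares), each against its own control, on a common axis. For the messages the circles lie to the right of the squares (medians 0.47 and 0.06), and for MT-TG, MT-TT and their nearest neighbours in the ranking both symbols lie close together.

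Lysosomal genes, which encode the acid hydrolases and membrane proteins of the degradative compartment, lay above both controls with both circRNAs for 14 of 27 tested members (51.9%) and below for 1. The median log2 change was 0.13 and none was called in DU145 alone. The cathepsins carried the largest values next to SQSTM1, the autophagy receptor p62. CTSL stood at 558 and 598 CPM in the controls and at 779 and 743 CPM with the circRNAs, CTSB at 239 and 243 CPM against 295 and 316 CPM, and SQSTM1 at 413 and 405 CPM against 520 and 574 CPM. TFEB, the transcription factor that drives these genes, was at 3.35 and 3.50 CPM in the controls and at 2.35 and 3.24 CPM with the circRNAs. With the spread of all 8 libraries, by which 1.05% of all genes were called, 4 members were called higher.

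The called genes lay on chromosomes 1 (2 genes), 7 (3), 11 (4), 12 (2), 19 (3) and 20 (1) and on the mitochondrial chromosome (2). Among the 10 rises 5 were protein-coding in GENCODE 29, and among the 7 falls 4, against 75.4% of all tested genes. The symbols of 1 rise, 2 falls and 16.2% of all tested genes had no match there, so their class is not known here. MMP1 with WTAPP1, and AC002480.3 with AC002480.5, are overlapping pairs, and MT-TG and MT-TT share the mitochondrial chromosome. No test of location or class was made.

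For the 5 largest rises and the 5 largest falls by the naming rule, the change in DU145 was set against that in PC3 in 1 fit of all 8 libraries. The difference of the circRNA effect between the lines passed the threshold for 2141 of 17869 genes (12%), and for 9 of these 10 genes. The 10 were chosen for their DU145 change, which enters the difference, so their count is not set against the 12%. MMP1 changed by 1.46 in DU145 and by -1.09 on the log2 scale in PC3, a difference of 2.55 (edgeR, adjusted over all genes). Its level in PC3 was low, at 2.90 and 2.70 CPM in the controls and 1.35 and 1.28 CPM with the circRNAs. PLEKHA4 changed by -1.20 in DU145 and by 4.47 in PC3. TXNIP and CD22 rose in DU145 and had changes of -0.13 and -0.26 in PC3, where CD22 was at most 1.28 CPM in any library. TGFB2-AS1 was the exception, with -0.89 in DU145 and -0.79 in PC3, a difference of -0.11 (adjusted p = 0.76).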

How the data were processed

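Total RNA of the DU145 libraries was depleted of ribosomal RNA, made into stranded libraries with molecular identifiers of 8 bases and sequenced in pairs of 150 bases, per the labels' protocols. Per the submitters' processing notes, the authors used Trimmomatic 0.36, featureCounts from Subread 1.5.1, edgeR 3.12.1 and hg38. The aligner, annotation release, strand setting and use of the identifiers are not given in the sources used here. The deposited values are raw read counts per gene. The deposited RPKM values equal count over gene length and total, and served as an alternative.

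The tables of the 2 arms were joined by gene (31268 genes in both, 5511 in 1 table, with at most 14 counts there and 0 given in the other). From 64.9% to 65.4% of low counts in the DU145 libraries were even numbers. Genes at 1 CPM or more in at least 2 of the 4 libraries were tested in R 4.3.3 by edgeR 4.0.16 (quasi-likelihood, TMM scaling, no covariate, 2 residual degrees of freedom), tested on simulated data beforehand. The SE is the log2 change over the square root of its F statistic. For folds of 1 library over 1 control, untested, 2 was the prior count. Named were the 12 largest called rises and falls at a mean of 5 CPM or more, with places filled by unadjusted p, up to 4 called members per list, RCAN3, STK3, markers, the 5 genes most unlike between the circRNA libraries in each direction, 10 genes known from earlier results and the 5 most abundant called genes. Other list members are given as values, chosen after their values were seen. The members, 41 gene lists and tests were chosen with earlier results of these data known. A further list, the mitochondrial tRNAs, was added later. Some genes of the lists are not reported here by name. Alternatives used DESeq2 1.42.0 and limma 3.58.1.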

Additional observations from a re-analysis of the deposited data

Results flagged for a closer look

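The change with the circRNAs differed between DU145 and PC3, by an interaction term over all 8 libraries (edgeR, adjusted over 17869 genes), for 9 of 10 genes looked at. They were picked for their change in DU145, which enters this difference, and 12% of all genes passed, so the count itself is no result. As DU145 minus PC3 on the log2 scale, the difference was 2.55 for MMP1, 2.39 for WTAPP1, 1.93 for TXNIP, 1.78 for CD22 and 0.97 for MYH16. It was -5.68 for PLEKHA4, -2.08 for AC002480.5, -1.93 for AC002480.3 and -0.66 for PCED1B. MMP1 and WTAPP1, which overlap on opposite strands, went up in DU145 and down in PC3. In PC3 MMP1 was at most 2.90 CPM and WTAPP1 at most 1.95 CPM in any library. PLEKHA4, AC002480.5 and AC002480.3 went down in DU145 and up in PC3, where PLEKHA4 reached 221 and 205 CPM but neither AC002480 transcript reached 1 CPM in any library (AC002480.5 at 0.307 and 0.251 CPM in the controls and 0.735 and 0.668 CPM with the circRNAs). With 1 library left out the difference missed the threshold for CD22 (adjusted p = 0.059), for MYH16 (0.0584 to 0.0858, 3 libraries) and for PCED1B (0.0537 to 0.0901, 4 libraries).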

How the results depend on the processing

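The number of called genes moved with most choices. Against 17, DESeq2 size factors gave 29, DESeq2 94, no filter 209, a 5 CPM filter 8, counts halved 32 and the fit of all 8 libraries 187. With the arm as a replicate block there were 124 calls. Same-arm libraries did not deviate together (r = 0.00144 across tested genes and -0.105 at 5 CPM or more), so the arm is not shown to pair them. Limma on log2(RPKM + 0.1) and log2(RPKM + 1) with the block gave 224 and 223. Chosen after seeing the data, limma without the block gave 2 and 1, all 8 libraries with a block 162, and the block with the arms crossed 256. Leaving out 1 library at a time gave 10 to 2740: 11 and 10 without a control, and 2655 and 2740 without a circRNA library, where the spread comes from the 2 controls alone. MMP1 passed in all 18 alternatives, and no called gene changed direction.

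Called list members numbered 3 (6 with DESeq2 size factors, 42 with all 8 libraries, 28 with the block, 2 to 262 with 1 library left out); the tRNA list is not in this count. The 2141 genes that differ between the lines became 1237 to 3863 with 1 library left out. STK3, at 0.09, ranged from -0.141 without the circ0004592 library to 0.301 without that of circ0003553. The line difference of TGFB2-AS1, at -0.11, ranged from -0.236 to 0.060 and turned positive without the circ0003553 library of PC3 (0.017) or its control (0.060). The 0.301 passed the test (adjusted p = 0.0063, spread from the controls alone); the turned values did not. Without 1 library, the line difference missed the threshold for CD22 (1 library), MYH16 (3) and PCED1B (4). Other causes were not tested. With 2 libraries per group, small changes are not detectable.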

Other observations

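Heat shock chaperones lay above both controls with both circRNAs for 11 of 24 tested genes (45.8%) and below for 2 (8.33%), with none called. The shares over all tested genes, for this and the lists below, were 19.5% above and 20.2% below. HSPA8, the constitutive HSP70, stood at 756 and 786 CPM in the controls and at 1059 and 1278 CPM with the circRNAs (log2 change 0.60 ± 0.11, edgeR adjusted p = 0.0833). The inducible HSPA1A was high with circ0004592 alone, at 117 CPM, against 76.4 CPM with circ0003553 and 68.9 and 68.8 CPM in the controls. Feedback genes and targets of the MAPK pathway lay above for 10 of 23 (43.5%) and below for 3 (13.0%). DUSP4, a phosphatase of ERK, stood at 12.7 and 10.4 CPM in the controls and at 17.3 and 16.5 CPM with the circRNAs, and SPRY4, a Sprouty inhibitor, at 15.9 and 14.6 CPM against 21.8 and 20.2 CPM. Genes of mitosis lay below both controls for 17 of 37 (45.95%) and above for 1 (2.70%), with a median log2 change of -0.11. BUB1B, a checkpoint kinase, stood at 350 and 369 CPM in the controls and at 299 and 285 CPM with the circRNAs. Host genes of small nucleolar RNAs lay below for 6 of 12 (50%) and above for none, with a median log2 change of -0.05. With DESeq2 size factors 5 lay below (41.7%, against 19.9% of all tested genes). SNHG8 stood at 22.2 and 20.7 CPM in the controls and at 14.0 and 12.7 CPM with the circRNAs (adjusted p = 0.0526). Cytosolic ribosomal proteins lay above for 26 of 76 (34.2%) and below for 3 (3.95%), but their median log2 change was only 0.05.

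The 2 circRNA libraries differed most, among genes whose controls were alike, in a set of low to moderate genes. C8orf59 stood at 21.3 CPM with circ0003553 and 10.4 CPM with circ0004592, with 15.1 and 16.1 CPM in the controls. OXTR, the oxytocin receptor, stood at 8.45 and 4.06 CPM, with 5.72 and 6.30 CPM in the controls. PLEKHJ1 went the other way, at 66.6 CPM with circ0003553 and 109 CPM with circ0004592 (controls 89.6 and 90.8 CPM). SLC10A3, a solute carrier, stood at 7.86 and 13.6 CPM, with 10.8 and 9.75 CPM in the controls. The remaining 6 genes of this rule were MTND4P12, RPS6KA6 and RP11-264B14.2, higher with circ0003553, and TMEM160, DPF1 and BORCS6, higher with circ0004592. Each value comes from 1 library, and none of these differences was tested. Among 4 groups of genes by length, the median log2 fold of the shortest 2961 was -0.04 with circ0003553 and 0.05 with circ0004592.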
